A study of Homo sapiens with 6 samples.

Results

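Cells of an epithelium hold together through 3 kinds of junction, and 33 genes of these structures were followed in A549 cells, an established line from a human lung adenocarcinoma, after knockdown of MRPL35. The genes were taken by name, with earlier results of these data known. Their shares beside those of all genes therefore describe the list and are no test of it. Of the 33, 32 had at least 1 probe set annotated with that symbol alone, out of 18244 genes with such a probe set. F11R was not analysed here. Each gene is represented by its brightest probe set, the one with the highest mean over all 6 arrays. The 2 groups were A549 cells given lentivirus with a short hairpin against MRPL35 (KD, 3 samples) and A549 cells given lentivirus with a control hairpin (NC, 3 samples), all without any other labelled treatment, and each sample was hybridised to 1 Affymetrix array. The series' design text names the hairpins shMRPL35 and shctrl, and the labels give neither the time after infection nor a second hairpin against MRPL35. Source names of NC replicates 2 and 3 carry cell line numbers other than that in their characteristics, which read A549. Since nothing in the labels tells separate cultures apart, a p-value here reflects the spread of these 6 samples, possibly a technical one.

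Desmosomes are spot-like junctions in which the desmosomal cadherins, the desmogleins and desmocollins, cross the gap between cells and bind a plaque of plakoglobin, plakophilins and desmoplakin, which anchors keratin filaments. Tight junctions seal the space between cells with strands of claudins, helped by occludin and tricellulin and fixed to actin by the scaffold proteins ZO-1, ZO-3 and cingulin. Adherens junctions couple E-cadherin to actin through the catenins, and nectins with their partner afadin form a parallel link.

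Most of the desmosome genes rose in the knockdown cells, while the calls in the other junctions went in both directions. All values are on the log2 scale of the deposited probe-set table, and "rose" or "fell" means an adjusted p under 0.05 over all 18244 genes (limma, Benjamini-Hochberg). Among 11 desmosome genes, 8 rose and none fell, and the median difference was 0.69, against 17.6% of all genes that rose and a median of -0.018 over all genes. Of the 7 claudins 2 fell and 0 rose, against 15.9% of all genes that fell. Their called share in either direction, 28.6%, was below the 33.5% of all genes. Over the 32 genes 10 rose, 5 fell and 17 did not pass, so that 46.9% were called, against 33.5% of all genes, and the median change was 0.20. Called shares by role were uneven, at 72.7% of the desmosome genes and 0% of 3 tight junction membrane proteins. They were 40% of 5 scaffolds and 50% of 6 catenin, afadin and nectin genes. A call with a log2 difference of at least 0.5 was met by 10 of the 32, against 19.3% of all genes. At least 2-fold changes were seen in 5 of the 32, namely PPL, JUP, DSP, AFDN and CTNND1, against 5.36% of all genes. The KD and NC arrays did not overlap for 20 of the 32, against 44.7% of all genes.

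**Figure D1:**
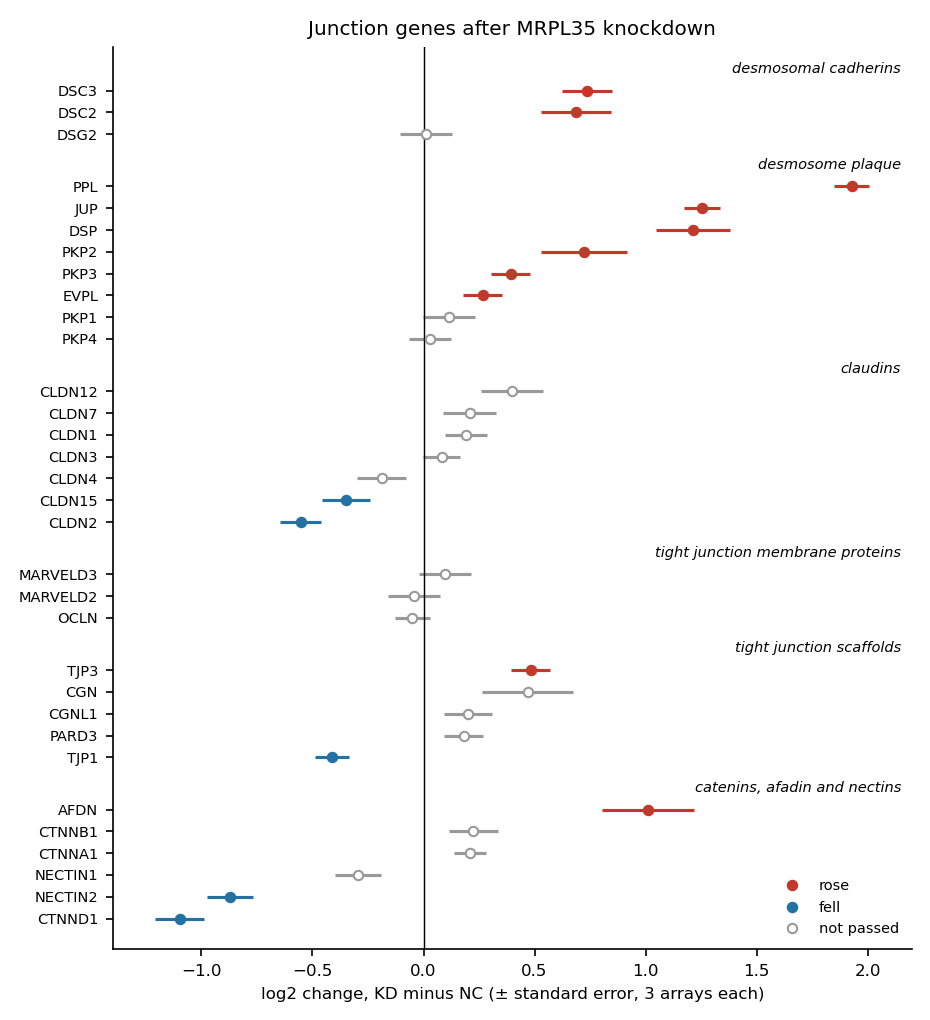
Log2 change, KD minus NC, of each of the 32 measured junction genes with its standard error, grouped by role; red points rose, blue points fell and open points did not pass (limma, adjusted p under 0.05). The desmosome genes lie at or to the right of 0, from 0.011 in DSG2 to 1.93 in PPL, while CTNND1 lies farthest to the left at -1.10.

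The target gene fell in every KD array, to 6.50 ± 0.059 from 8.19 ± 0.16 in NC (mean ± SD, n = 3 each), a change of -1.69 ± 0.096 (limma adjusted p = 3.77e-06). NC replicate 2 stood apart from the other 5 arrays on the second principal component, which carried 11.8% of the variance. Among the 32 junction genes it was the lowest of the NC arrays in 16 and the highest in 9, and its difference from the mean of the other NC arrays ran from -0.75 in PKP2 to 0.78 in CGN. Where leaving it out ended or made a call, or moved a called change by over 1.5 times, the value without it is given beside the gene. Among genes that passed with neither set of arrays, PKP4 and MARVELD3 turned sign without it (0.028 to -0.022 and 0.097 to -0.018), as did DSG2, while PKP1 went from 0.11 to 0.22, CLDN1 from 0.19 to 0.097 and CLDN4 from -0.19 to -0.12. Markers of epithelium were present, with KRT7, KRT8, KRT18 and KRT19 among the brightest genes (KRT19, the dimmest of them, at percentile 97.8). EPCAM, of the same list, lay below the median gene, at percentile 47.1, and did not pass (0.21 ± 0.12). Of the alveolar type 2 markers 4 of 6, NKX2-1, SFTPA1, SFTPB and SFTPD, lay below the median gene. All measured markers of fibroblasts (7), endothelium (5) and leucocytes (4) also lay below the median gene. The summed linear levels in KD and NC were 181 to 201 and 169 to 208 for the fibroblast list, 143 to 154 and 143 to 166 for the endothelial list, and 107 to 111 and 83.8 to 105 for the leucocyte list. Within them THY1 and CD14 rose while PDGFRA and ITGAM fell, and their part in the results was not tested. The summed linear level of the 6 epithelial markers was 37242 to 38135 in KD and 27517 to 28852 in NC. Of those 6, CDH1, KRT8, KRT18 and KRT19 rose with the desmosome genes, and the part of this in their rise was not tested. In bulk RNA, fewer cells with a transcript and less of it per cell cannot be told apart. For ACTB the 3' control probe set exceeded the 5' one, a gap that widens as RNA degrades, by 0.63 ± 0.044 log2 units in KD and by 0.58 ± 0.082 in NC (mean ± SD, n = 3 each). For GAPDH the gap was 0.086 ± 0.035 in KD and 0.012 ± 0.050 in NC, larger in KD, and its part in the results was not tested.

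The plaque proteins that tie the desmosome to keratin changed most. PPL, which encodes periplakin, a plakin that links the plaque to keratin and to the cornified layer of skin, read 8.04, 7.996 and 7.88 in the KD arrays, in the order of their replicate numbers, and 6.08, 6.02 and 6.03 in the NC arrays in the same order. The groups were far apart and each was tight. The change was 1.93 ± 0.079 (standard error), 3.80-fold, with a limma adjusted p of 1.32e-06. JUP, plakoglobin or gamma-catenin, which sits in both desmosomes and adherens junctions, read 10.56, 10.66 and 10.67 in KD and 9.34, 9.33 and 9.45 in NC. It rose by 1.25 ± 0.080, or 2.39-fold (limma adjusted p = 7.01e-06), with no KD array near the NC range. DSP, desmoplakin, the main link from plaque to keratin, read 10.43, 10.40 and 10.23 in KD and 9.37, 8.72 and 9.33 in NC. NC replicate 2 was the low array, and the rise of 1.21 ± 0.17 was 1.002 without it (limma adjusted p = 0.000481 and 3.35e-05). The probe set of DSP has the suffix s, and without probe sets of suffix x or s the rise was also 1.002 (limma adjusted p = 2.63e-05).

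Of the plakophilins, which bind desmoplakin and the cadherin tails and gather them into the plaque, PKP2 and PKP3 rose and PKP1 and PKP4 did not pass. PKP2 read 6.07, 6.02 and 5.81 in KD and 5.49, 4.74 and 5.497 in NC. The 2 groups did not overlap, but the low value of NC replicate 2 carried much of the change of 0.72 ± 0.19 (limma adjusted p = 0.0179), which was 0.47 without that array. The call was lost without KD replicate 1 (adjusted p = 0.0622) or KD replicate 2 (0.0549). PKP3 rose by 0.39 ± 0.088, from 7.76 ± 0.13 to 8.16 ± 0.043 (mean ± SD, n = 3 each). PKP1 stood at 0.11 ± 0.12 and PKP4, which also works at adherens junctions, at 0.028 ± 0.094. EVPL, envoplakin, the partner of periplakin, rose by 0.27 ± 0.088 with a limma adjusted p of 0.0457. This call was lost without KD replicate 1, 2 or 3 or NC replicate 1 or 2 (limma adjusted p 0.0716 to 0.169), with median centring (0.0705), with trend and robust eBayes (0.0926) and without suffixed probe sets (0.0536), and it was below the 1.5-fold threshold. EVPL stood at 0.24 without NC replicate 2 (limma adjusted p = 0.0716). With EVPL left uncounted, 7 desmosome genes rose.

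Among the desmosomal cadherins both desmocollins rose and desmoglein 2 did not. DSC3 read 4.64, 4.95 and 4.59 in KD and 3.95, 3.91 and 4.11 in NC. Every KD array was above every NC array, and the change was 0.74 ± 0.11 (limma adjusted p = 0.000886), at a level below the median gene. DSC2, the desmocollin of simple epithelia, read 6.72, 6.55 and 6.55 in KD and 6.10, 5.53 and 6.14 in NC. It rose by 0.69 ± 0.16, a change that was 0.49 without NC replicate 2 (limma adjusted p = 0.00805 and 0.00167). The probe set of DSC2 has the suffix s, and without probe sets of suffix x or s the rise was 0.39 (limma adjusted p = 0.0207). DSG2, the desmoglein of simple epithelia, read 9.58, 9.70 and 9.55 in KD and 9.74, 9.34 and 9.72 in NC. The groups overlapped, and the difference was 0.011 ± 0.12 (limma adjusted p = 0.961). Without NC replicate 2 it was -0.12 (limma adjusted p = 0.311).

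**Figure D2:**
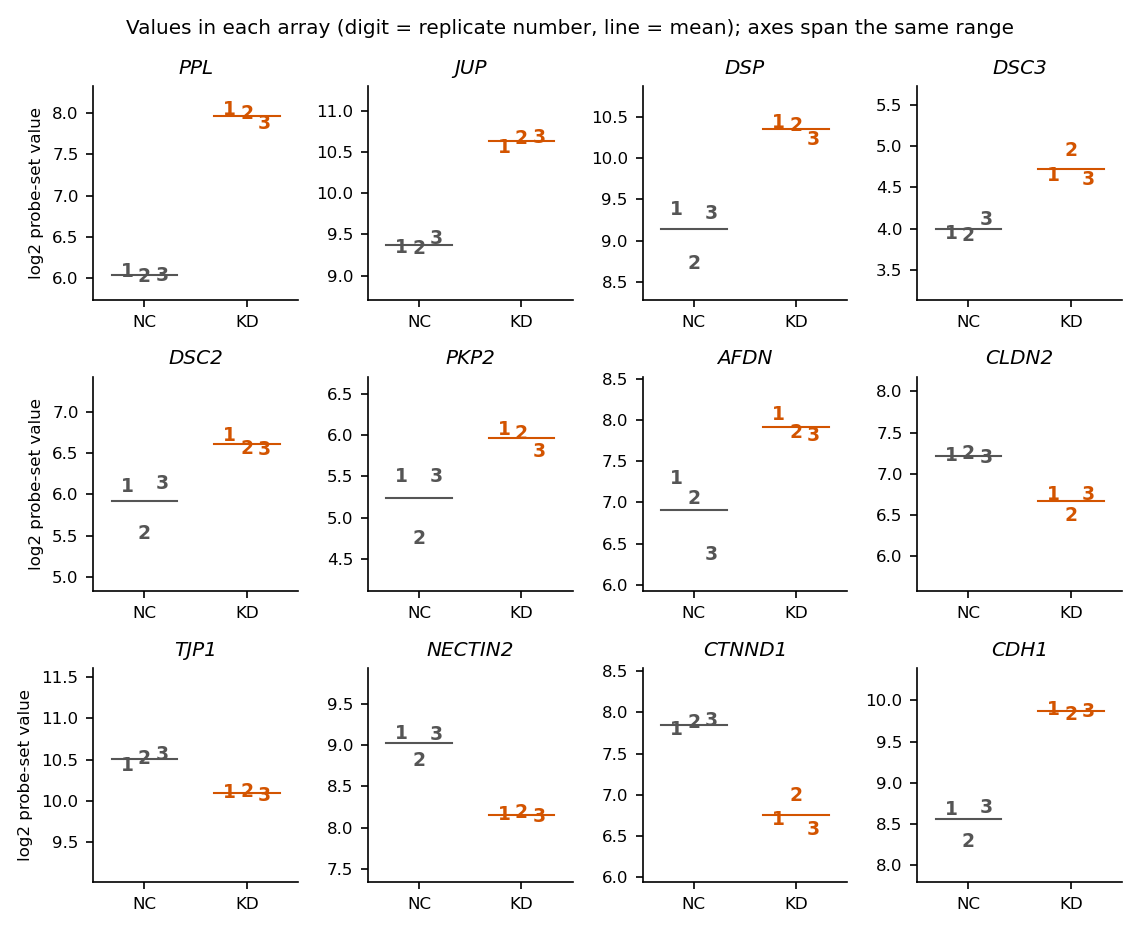
Log2 probe-set values of 11 junction genes and of CDH1 (E-cadherin) in each array, NC in grey and KD in orange; digits are replicate numbers, lines are group means and all axes span the same range of log2 units. In DSP, DSC2, PKP2 and CDH1 the digit 2 lies below the other NC arrays, and in PPL, JUP and CDH1 every KD array lies more than 1 log2 unit above every NC array.

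The junction genes were looked up in the RefSeq promoter table (GRCh38.p14) for the hexamer CAGGTG, or CACCTG read on the other strand. The 250 bases before the annotated start are shown for 5 of the 9 genes that carry it, picked by name. CLDN7, OCLN, TJP1 and TJP3 also carry it and are not shown, and of these only TJP3 rose. CAGGTG is the E-box letter sequence known to be bound by repressors of the SNAI and ZEB families, which act on E-cadherin. It was searched after the fall of SNAI2 had been seen. Capitals mark the hexamer, and each run is written 5' to 3' on the gene's own strand. DSP lies at chr6:7541421-7541670 (plus strand), JUP at chr17:41785977-41786226 (minus strand), DSC2 at chr18:31102422-31102671 (minus strand), DSG2 at chr18:31497927-31498176 (plus strand) and AFDN at chr6:167827385-167827634 (plus strand). JUP and DSC2 have a second entry in the table that lacks the hexamer.
DSP: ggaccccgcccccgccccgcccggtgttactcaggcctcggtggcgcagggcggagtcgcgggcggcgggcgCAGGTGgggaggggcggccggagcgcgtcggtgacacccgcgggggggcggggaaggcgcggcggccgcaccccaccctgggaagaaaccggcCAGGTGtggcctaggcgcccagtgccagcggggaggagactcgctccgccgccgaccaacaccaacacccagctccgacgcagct
JUP: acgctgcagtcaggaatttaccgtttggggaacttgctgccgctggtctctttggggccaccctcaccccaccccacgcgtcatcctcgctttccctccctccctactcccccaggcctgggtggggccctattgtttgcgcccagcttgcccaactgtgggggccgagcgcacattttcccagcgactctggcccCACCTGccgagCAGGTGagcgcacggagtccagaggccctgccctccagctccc
DSC2: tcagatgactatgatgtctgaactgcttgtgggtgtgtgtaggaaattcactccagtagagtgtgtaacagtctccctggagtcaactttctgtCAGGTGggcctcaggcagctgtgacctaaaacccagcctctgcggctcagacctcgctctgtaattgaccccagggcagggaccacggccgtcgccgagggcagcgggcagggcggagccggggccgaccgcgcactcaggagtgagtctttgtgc
DSG2: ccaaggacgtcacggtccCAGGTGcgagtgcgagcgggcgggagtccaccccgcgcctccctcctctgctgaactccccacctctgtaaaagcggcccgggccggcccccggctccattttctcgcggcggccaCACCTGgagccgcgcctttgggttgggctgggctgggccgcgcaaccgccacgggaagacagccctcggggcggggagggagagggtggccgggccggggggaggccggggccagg
AFDN: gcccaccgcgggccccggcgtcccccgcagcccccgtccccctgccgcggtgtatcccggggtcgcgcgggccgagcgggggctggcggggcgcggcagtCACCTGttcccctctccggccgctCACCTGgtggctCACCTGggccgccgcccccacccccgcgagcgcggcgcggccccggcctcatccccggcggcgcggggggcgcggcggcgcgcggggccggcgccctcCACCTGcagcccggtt

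In DSP the hexamers begin 178 and 85 bases before the start, and in JUP 54 and 43 bases before it. AFDN holds 4, which begin 150, 126, 114 and 16 bases before the start. Of the 32 genes 24 had a promoter entry, and 9 of these 24 (37.5%) held the hexamer on either strand in at least 1 entry, against 20.6% of all 27305 symbols. The 24 genes had more entries per gene than all symbols, and counted per entry the shares were 27.0% of 37 and 17.5% of 35116. It was present in 5 of the 6 genes that rose and had an entry (AFDN, DSC2, DSP, JUP and TJP3), in 1 of 4 that fell (TJP1) and in 3 of 14 that did not pass (CLDN7, DSG2 and OCLN). DSC3 rose without it. PPL, PKP2, PKP3 and EVPL also rose but had no promoter entry. DSC2, JUP, TJP3, TJP1 and CLDN7 each had at least 1 entry without the hexamer as well, and AFDN rose only in its bright probe sets. The hexamer was not counted among all genes that rose, fell or did not pass, so the counts by call have no background. The 20.6% covers all symbols with a promoter entry, whether or not the arrays measured them. These counts describe letters in this window and were not tested, and neither was a link to SNAI or ZEB repressors.

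Claudins, the strand-forming proteins that set which ions pass between cells, gave 2 calls among 7 genes, both falls. CLDN2, which forms a cation pore in leaky epithelia, read 6.75, 6.50 and 6.75 in KD and 7.22, 7.25 and 7.19 in NC. All KD arrays were lower, and the change was -0.55 ± 0.092 (limma adjusted p = 0.00152), leaving 68.2% of the NC signal. Its second probe set changed by -0.57. CLDN15, another cation pore claudin, read 7.40, 7.17 and 7.27 in KD against 7.43, 7.69 and 7.76 in NC, with KD replicate 1 close to NC replicate 1. Its change of -0.35 ± 0.11 (adjusted p = 0.0346) was lost when KD replicate 2 or 3, or NC replicate 2 or 3, was left out (limma adjusted p 0.0583 to 0.129). CLDN15 stood at -0.32 without NC replicate 2 (limma adjusted p = 0.0583). The remaining 5 claudins did not pass. CLDN12 stood at 0.40 ± 0.14 (limma adjusted p = 0.0577), or 0.26 without NC replicate 2, and it passed in 6 of 15 alternatives, such as without NC replicate 1 (0.0246). The barrier-forming CLDN1, CLDN3, CLDN4 and CLDN7 stood at 0.19 ± 0.096, 0.082 ± 0.083, -0.19 ± 0.11 and 0.21 ± 0.12. For CLDN1 the KD and NC arrays did not overlap, and 2 of its 3 other probe sets rose, by 0.35 and 0.46.

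The other membrane proteins of the tight junction, which join claudins in the strands, gave no call. OCLN, occludin, stood at -0.050 ± 0.077 and MARVELD2, tricellulin, the protein of 3-cell contacts, at -0.043 ± 0.12. MARVELD3, of the same family, had the smallest p of these 3. It read 3.22, 3.41 and 3.49 in KD and 3.40, 3.05 and 3.38 in NC, with overlapping groups (0.097 ± 0.12, limma adjusted p = 0.615). All 3 were read at levels below the median gene, and the background of these probe sets was not measured.

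The scaffolds under the tight junction went in both directions. TJP1, which encodes ZO-1, the scaffold that binds claudin tails and actin, read 10.10, 10.12 and 10.06 in KD and 10.43, 10.52 and 10.56 in NC. Both groups were tight, and the change was -0.41 ± 0.076 (limma adjusted p = 0.00268), leaving 75.2% of the NC signal. The value comes from a probe set whose suffix marks it as shared by several transcripts, and the other probe set stood at -0.22 ± 0.10, so that the call was lost without shared probe sets (limma adjusted p = 0.135). TJP3, ZO-3, a relative found in epithelia, rose by 0.48 ± 0.089, from 4.65 ± 0.092 to 5.13 ± 0.11 (mean ± SD, n = 3 each). CGN, cingulin, which ties the plaque to myosin and RhoA regulators, read 4.87, 5.12 and 4.94 in KD and 4.09, 5.02 and 4.40 in NC. NC replicate 2 lay within the KD range, so that the change of 0.47 ± 0.20 did not pass (limma adjusted p = 0.120), while without that array it was 0.73 (adjusted p = 0.000922). CGNL1, paracingulin, stood at 0.20 ± 0.11 and did not pass with or without that array, but a second probe set rose by 0.68 ± 0.11 (limma over all probe sets, adjusted p = 0.00106), and the gene passed with array weights (0.0341).

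PARD3, a polarity scaffold of the tight junction, had probe sets that went opposite ways. The brightest read 9.59, 9.53 and 9.67 in KD and 9.54, 9.36 and 9.34 in NC, with overlapping groups and a difference of 0.18 ± 0.088 that did not pass. Of the 3 others, 1 rose by 0.39 ± 0.082 and 1 fell, with a change of -0.37 ± 0.081 (limma over all probe sets, adjusted p = 0.00548 and 0.00661). The sources used here do not tell which PARD3 transcripts these probe sets read.

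Members of the adherens junction and its nectin partner system held the largest falls of the 32 genes, in CTNND1 and NECTIN2. CTNND1, p120-catenin, which binds cadherin tails near the membrane and keeps cadherins at the surface, read 6.70, 6.99 and 6.58 in KD and 7.79, 7.87 and 7.90 in NC. All KD arrays were well below the NC range. The change was -1.10 ± 0.11 (limma adjusted p = 8.48e-05), leaving 46.7% of the NC signal. A second probe set had a change of -1.47 and fell too, while the 3 dimmest, with means from 4.76 to 5.04, stood at -0.036, 0.099 and -0.023. NECTIN2, an adhesion molecule that recruits afadin, read 8.16, 8.18 and 8.13 in KD and 9.14, 8.81 and 9.13 in NC. It was lower in every KD array, with a change of -0.87 ± 0.10 (limma adjusted p = 0.000201), or -0.98 without NC replicate 2. Its other probe set stood at 0.21 ± 0.11 and did not pass. NECTIN1, a nectin of the same system, stood at -0.29 ± 0.10 (limma adjusted p = 0.0592), with all KD arrays below all NC arrays, and it passed in 6 of 15 alternatives, such as without NC replicate 1 (0.0303).

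AFDN, afadin, the scaffold that joins nectins to actin, read 8.07, 7.85 and 7.82 in KD and 7.30, 7.05 and 6.37 in NC. The groups did not overlap and NC replicate 3 was the lowest, and the change was 1.01 ± 0.21 (limma adjusted p = 0.00475). A second bright probe set gave 1.05 ± 0.14. Both bright probe sets carry the suffix of probe sets shared by several transcripts. Of the 5 dim ones, with means from 3.23 to 4.16, 2 fell, with changes of -0.81 and -0.47, and 3 did not pass. Without probe sets of such suffixes the gene stood at -0.17 and did not pass (limma adjusted p = 0.232). The direction for AFDN therefore holds only for its bright probe sets.

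CTNNA1 and CTNNB1, the alpha- and beta-catenin that link cadherins to actin, had bright probe sets and did not pass. CTNNB1, also the transducer of Wnt signals, read 10.59, 10.47 and 10.44 in KD and 10.40, 10.04 and 10.38 in NC. The groups were close but did not overlap, with NC replicate 2 the lowest, and the difference was 0.22 ± 0.11 (limma adjusted p = 0.169), or 0.11 without that array. None of its 8 probe sets passed. CTNNA1 stood at 0.21 ± 0.073 with groups that did not overlap (limma adjusted p = 0.0541). It did not pass in 9 of 15 alternatives and passed as a rise in the others. Without probe sets of suffix x or s it stood at 0.51 (limma adjusted p = 0.00289). Of its 6 other probe sets 3 rose, by 0.32, 0.51 and 0.51.

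**Figure D3:**
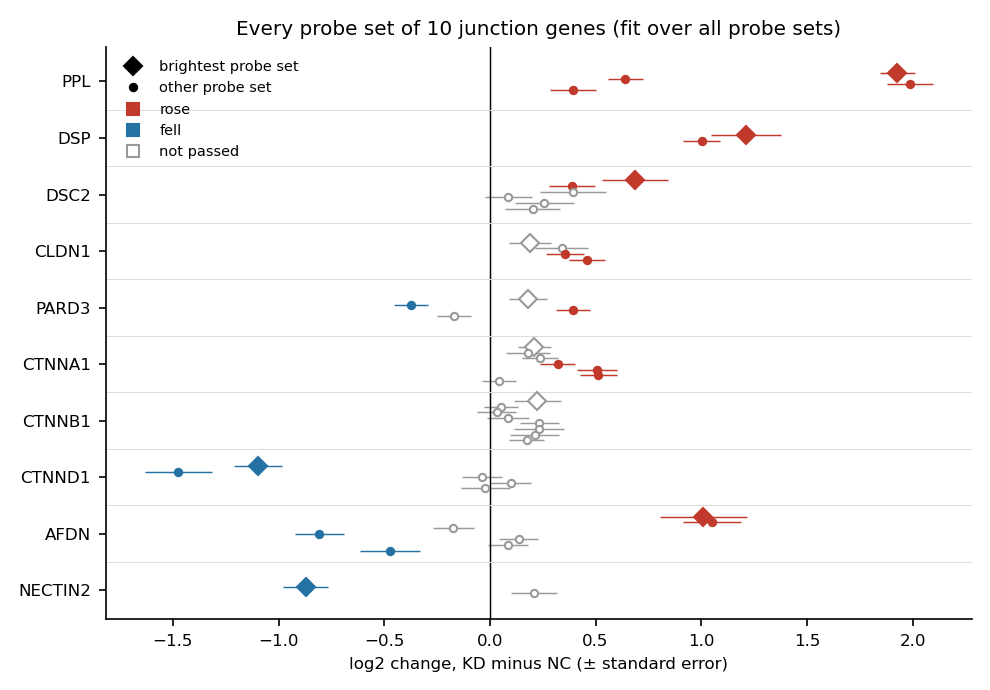
Log2 change, KD minus NC, with its standard error, of every probe set of 10 junction genes in the fit over all probe sets; diamonds are the brightest probe set of a gene, small circles the others, red rose, blue fell and open symbols did not pass. The 4 probe sets of PPL lie right of 0, from 0.39 to 1.99, whereas those of AFDN lie on both sides, from -0.81 to 1.05.

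Of the 32 genes 26 had several probe sets to compare, and the 32 genes had 99 probe sets in all. Only AFDN and PARD3 had a probe set that passed in the direction opposite to the brightest. All 3 other probe sets of PPL rose, and so did the second ones of DSP (1.002 ± 0.087) and PKP2 (0.76 ± 0.13) and both others of DSC3. Of the 5 other probe sets of DSC2 only 1 passed, though all 5 had the same sign. The second probe set of PKP3 stood at 0.35 ± 0.13 and did not pass (limma over all probe sets, adjusted p = 0.0750). With all probe sets of a gene averaged, the rises of PPL and DSC2 were 1.24 and 0.34 and the falls of CTNND1 and NECTIN2 were -0.51 and -0.33, and all 4 still passed (limma adjusted p up to 0.0287). The average of AFDN, 0.12, did not pass, whereas CLDN1, CLDN12, CGNL1 and CTNNA1 passed as rises of 0.34, 0.30, 0.27 and 0.29. JUP, EVPL, CLDN3, CLDN7, OCLN and TJP3 rest on 1 probe set each.

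Other junction genes, outside the 33, were described from 4 lists, which were also chosen with earlier results of these data known. Of 27 measured genes of the same families 2 rose and 2 fell, with 0 to 3 rising as single arrays were left out, against 33.5% of all genes called either way. Most of their members, such as the skin desmogleins DSG1 and DSG3, were read at low levels. JAM3, a junctional adhesion molecule, changed by -0.85 ± 0.10 and the alpha-catenin relative CTNNAL1 by -0.49 ± 0.096, and both fell. ARVCF, of the p120-catenin family, rose by 0.50 ± 0.14 and CLDN23 by 0.32 ± 0.089, but ARVCF was called only while all arrays but NC replicate 2 were kept, and CLDN23 was lost without KD replicate 2 or 3 (limma adjusted p up to 0.101 and 0.0994).

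Genes of the apical polarity complexes, which place the tight junction at the border of apical and lateral membrane, included 8 of 18 measured members that rose and 2 that fell, with a median difference of 0.24, where 17.6% of all genes rose and 15.9% fell. The falls numbered 1 to 3 as single arrays were left out. PRKCZ and PRKCI, the atypical protein kinases C that bind PARD3 and PARD6, rose by 1.26 ± 0.094 and 0.73 ± 0.086. PATJ, a scaffold of the Crumbs complex, rose by 0.76 ± 0.096 and DLG1, a basolateral scaffold, by 0.71 ± 0.16 (limma adjusted p = 0.00712, the largest of these 4). All 3 KD arrays of PRKCZ, at 7.97, 8.04 and 7.87, lay above the NC arrays, at 6.66, 6.58 and 6.85.

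Among 21 measured genes that link junctions to actin or regulate them 4 rose and 3 fell, a called share of 33.3% beside 33.5% of all genes, and 6 rose without NC replicate 2. MYH9, the heavy chain of non-muscle myosin IIA, which tensions junctional actin, fell to 8.44, 8.37 and 8.41 in KD from 10.39, 10.40 and 10.53 in NC. Its change of -2.03 ± 0.077 leaves 24.4% of the NC signal (limma adjusted p = 1.26e-06), and its 3 other probe sets fell too. VCL, vinculin, changed by -0.83 ± 0.074, a fall in its 2 brighter probe sets that was lost without shared probe sets (limma adjusted p = 0.864). LIMA1, an actin-binding protein of adherens junctions, rose by 0.83 ± 0.098 and YBX3, a partner of ZO-1, by 0.75 ± 0.076.

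Of 20 regulators and markers of epithelial or mesenchymal state 4 rose and 3 fell, so that 35.0% were called, close to the 33.5% of all genes. CDH1, E-cadherin, rose by 1.31 ± 0.12 (limma adjusted p = 3.96e-05), reading 9.89, 9.83 and 9.87 in KD and 8.68, 8.29 and 8.70 in NC. SNAI2, a repressor of epithelial genes, read 4.02, 3.67 and 3.68 in KD and 4.96, 5.02 and 4.94 in NC, a change of -1.18 ± 0.11 on 1 dim probe set (limma adjusted p = 4.51e-05). GRHL3, an epithelial grainyhead-like factor, rose by 0.80 ± 0.10. FN1, fibronectin, often taken as a mesenchymal marker, rose as well, by 0.62 ± 0.12. The other genes called, smaller in size, were ELF3, an epithelial ETS factor, which rose by 0.31, and SNAI1 and CDH2, the repressor Snail and N-cadherin, which fell with changes of -0.43 and -0.37.

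**Figure D4:**
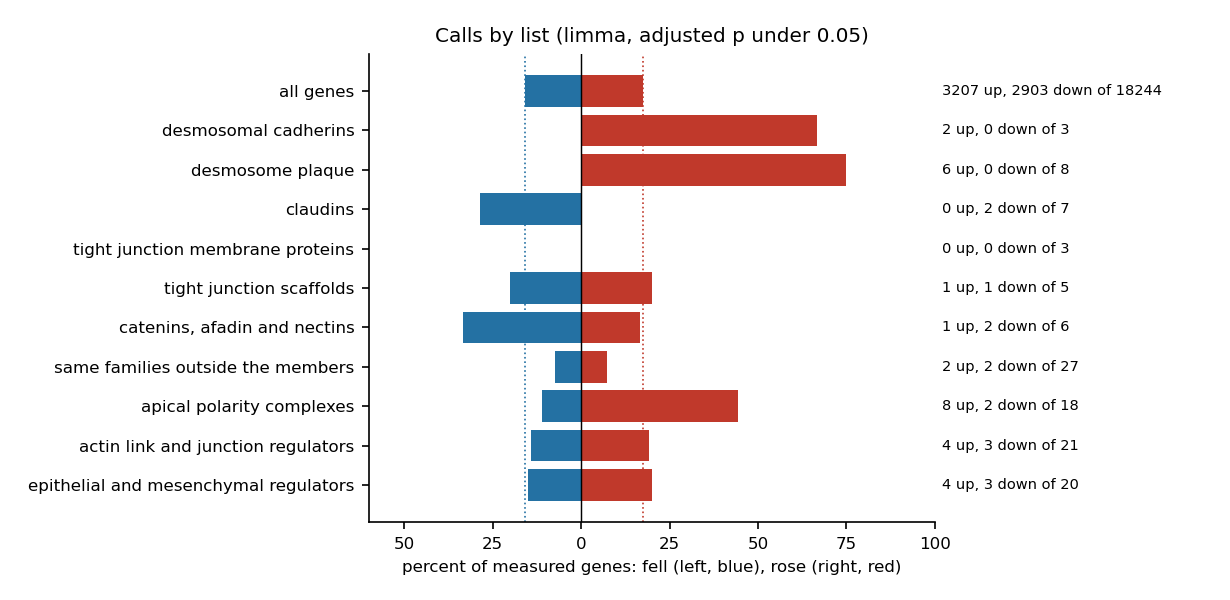
Percent of measured genes that rose (red, to the right) or fell (blue, to the left) in each junction role and in 4 lists of related genes, with the counts at the right; dotted lines mark the shares among all 18244 genes. The desmosome bars point only to the right, with 2 of 3 cadherins and 6 of 8 plaque genes, and the claudin bar only to the left, with 2 of 7.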

How the data were processed

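Total RNA of 6 A549 samples was labelled with biotin and hybridised to Affymetrix arrays, per the labels' protocols. The deposited values cover 49395 probe sets and were read as log2, a base inferred from their range of 2.05 to 14.3. The authors' probe summary and normalization are steps not given in the sources used here. How far they compressed fold changes is unknown, and background could not be taken from the value table.

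Samples were grouped and numbered by title. The source names of NC replicates 2 and 3 carry other cell line numbers than their characteristics, which give A549. Of the probe sets 45278 had 1 symbol in the platform annotation, 1333 several and 2682 none listed, and 102 were controls. Of the 45278, 45208 had a gene ID in the RefSeq table of GRCh38.p14, which changed 0 symbols. The test was a two-sided limma fit (version 3.58.1, lmFit then eBayes, under R 4.3.3) of group alone, with 4 residual and 4.67 prior degrees of freedom, Benjamini-Hochberg adjustment over 18244 genes and no filter on dim genes. Values in every array are given for genes with a call, no overlap and an absolute log2 change of at least 0.5, or the smallest p of a role, and up to 4 genes are named from each other list by size of change. Values of all arrays given for further genes were chosen after they were seen. The fit was tested on simulated data. The members and lists were chosen with earlier results of these data known. Promoters are those of RefSeq, GRCh38.p14. Figures used matplotlib 3.10.9.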

Additional observations from a re-analysis of the deposited data

How the results depend on the processing

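Between-array scaling (quantile or median), the variance model (trend with robust eBayes), limma's array weights, the number block, the probe set taken for a gene (the mean of all, or none of suffix x or s), a floor at the 40th percentile, a 1.5-fold threshold and the loss of each array were varied. The alternative pseudocount did not apply to log2 values. In these settings 7 to 13 junction genes rose. With the 1.5-fold threshold, 1417 of all genes rose and 1415 fell, 2 junction genes fell, and 0 claudins fell, with 0 tight junction scaffolds rising and 0 falling. With the mean of probe sets the junction median was 0.14, and 2 claudins and 2 scaffolds rose. Without dim genes 1 desmosomal cadherin, 1 claudin, 0 scaffolds and 2 of the catenin, afadin and nectin genes rose, with 22 of the 32 genes left. Quantile normalization gave 1 rising claudin and 2 rising genes of the catenin group, trend and robust fitting 1 and 3, and array weights 3 rising scaffolds and 2 of the catenin group. Without suffixed probe sets 0 scaffolds fell and AFDN was at -0.17; its call was also lost with the mean of probe sets. The causes were not tested.

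With single arrays left out, the junction genes that rose numbered 8 to 10 and those that fell 4 to 6, with a median of 0.17 to 0.20. Desmosome plaque rises numbered 4 to 6, claudin rises 0 to 1 and falls 1 to 2, scaffold rises 1 to 2, and catenin group falls 2 to 3. Over all genes the rises ran from 2612 to 3467 and the falls from 2343 to 3279.

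Same-numbered arrays deviated together in pairs 1 and 2 (r = 0.25 and 0.26 across genes) but not in pair 3 (-0.096), so the numbers were not taken as pairs. The best match had the same number for 1 of 3 KD arrays and for 2 of 3 NC arrays. The replicate block gave 12 rises and 6 falls among the junction genes, with 1 rising claudin and 2 rising scaffolds. The number of arrays limits the precision, and low signals are limited by a background that was not measured.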

Other observations

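Close relatives among the junction genes differed in their changes. In the p120-catenin family CTNND1 fell (-1.10 ± 0.11), ARVCF was at 0.50 ± 0.14, PKP4 at 0.028 ± 0.094 and CTNND2, read at a low level, at 0.14 ± 0.085 (log2 KD minus NC ± standard error, n = 3 each). Of the paired catenins JUP and CTNNB1, which can take the same place on the E-cadherin tail, JUP changed by 1.25 ± 0.080 and CTNNB1 by 0.22 ± 0.11. The ZO proteins differed in sign, with TJP1 at -0.41 ± 0.076 and TJP3 at 0.48 ± 0.089. The differences between these pairs were not tested.

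The grainyhead-like letters AACNGGTT were found on either strand before the start of 1 of the 24 junction genes with a promoter entry, CGN, and in 1.85% of all symbols. The AP-1 letters TGANTCA were found before CLDN2, CLDN4 and CLDN15, 3 of the 24 genes, and in 8.06% of all symbols. No test was made of either.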
